A study of Homo sapiens with 4 samples.

Results

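H3K14ac, the acetylation of lysine 14 on histone H3, was examined at 10 genes that define epithelial splicing, adhesion and cell junctions: ESRP1, ESRP2, GRHL2, CDH1, EPCAM, CLDN3, CLDN4, CLDN7, OCLN and TJP1. The genes were set by name, with earlier results of these data known. They are 10 of 20033 protein-coding genes with a position in the RefSeq gene table (GRCh38.p14, the chromosomes of hg38). The mark was mapped by chromatin immunoprecipitation and sequencing (ChIP-seq) in MKN45, an established human gastric cancer cell line. Cells carried a short hairpin RNA against NIT2 (shNIT2), whose product is an omega-amidase, or a control hairpin (shNT), and otherwise shared line, medium, fixation and antibody. Each condition had 1 H3K14ac library and 1 input library; the values used were the peak regions called on each of the H3K14ac libraries. No condition was replicated, so nothing below was tested across samples or has a replicate check. A region was assigned to a gene when it overlapped the gene span extended by 10 kb on both sides.

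Epithelial cells are held together by adherens junctions, built on the cadherin CDH1, and by tight junctions, in which claudins and occludin seal the gap between neighbours and are tied to actin by scaffold proteins such as TJP1 (ZO-1). GRHL2, a grainyhead transcription factor, is known to activate CDH1 and claudin genes, and the RNA-binding proteins ESRP1 and ESRP2 set the epithelial splice forms of many transcripts. H3K14ac is known as a mark of active promoters and enhancers. It is therefore informative for these genes both at their start sites and at sites further inside or outside the gene.

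The background values point to libraries of unequal depth, though total reads are unknown, and this touches every count below. The shNIT2 list held 28187 regions with a median of 22 fragments piled up at the summit, and the shNT list held 39876 with a median of 6. The lowest background, which rises with depth, was 2.48 fragments in shNIT2 and 0.278 in shNT, a ratio of 8.93. The smallest pileup of any region was 9 fragments in shNIT2 and 3 in shNT. The authors' fold (pileup over background, with 1 added to each) and −log10 q therefore rank regions within a list and are not compared between lists. Depth and acetylation cannot be told apart as sources of a difference between the lists.

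All 10 genes had a shNIT2 region in the window and 9 had a shNT region, with ESRP2 as the exception. Among all protein-coding genes, 54.9% had a shNIT2 region and 38.6% a shNT region in the window, 27.4% had both and 27.5% a shNIT2 region alone. The median window was 61.6 kb for the 10 genes and 44.1 kb for all protein-coding genes, and these shares were not set per length. At the start site the lists differed more. Within 1 kb of a start site, 9 of the 10 genes had a shNIT2 region, where the share of all genes was 37.6%, and 2 genes (EPCAM and CLDN7) had a shNT region, where the share of all genes was 6.15%. The shNIT2 list alone marked the start of 7 genes, a state found for 32.5% of all genes, and both lists marked that of 2 (5.13% of all genes). CLDN3 was without a mark there in either list. Start sites came from a RefSeq promoter table, which holds CLDN3, CLDN4, CLDN7, OCLN and TJP1. For ESRP1, ESRP2, GRHL2, CDH1 and EPCAM both ends of the gene were used, and in each case the marked end was the one at which the gene is known to start.

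**Figure D1:**
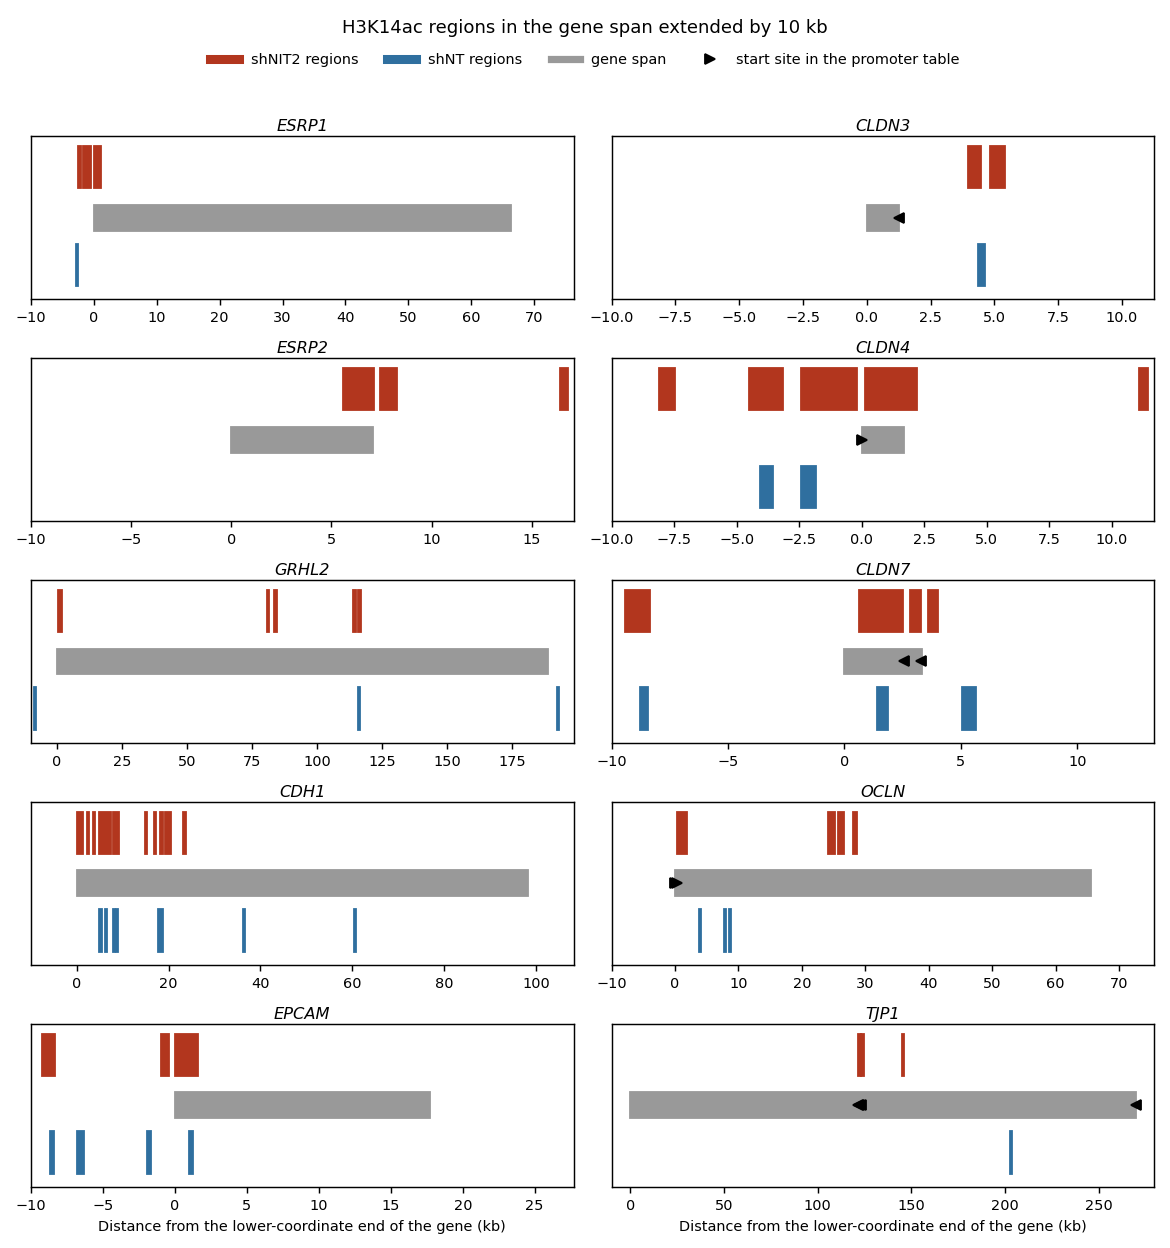
H3K14ac regions of the shNIT2 list (red, above each gene) and the shNT list (blue, below) against the gene span (grey), by distance from the lower-coordinate end of the gene in kb; arrowheads are start sites in the promoter table and point in the direction of transcription. Regions are drawn at a minimum width so that narrow ones can be seen. The 10 shNIT2 regions of CDH1 sit in the first 25 kb of the gene, and ESRP2 has no shNT region.

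The windows held 42 shNIT2 regions and 25 shNT regions. Window lengths ran from 21.3 kb (CLDN3) to 290 kb (TJP1), so counts were also set per length. The density was 4.57 shNIT2 and 2.72 shNT regions per 100 kb of window, against 1.66 and 0.823 per 100 kb over the windows of all protein-coding genes. Per 100 kb, CLDN4 was the densest in the shNIT2 list (23 regions) and TJP1 the sparsest (1.04). In the shNT list CLDN7 was the densest (12.9) and ESRP2 had 0. The 42 shNIT2 regions had a median width of 889 bp, a median fold of 4.47 and a median pileup of 24 fragments, where the whole list had 573 bp, 4.21-fold and 22 fragments. The 25 shNT regions had 351 bp, 4.68-fold and 5 fragments, against 366 bp, 4.78-fold and 6 fragments in the whole list. At these genes the shNIT2 regions were thus wider than the list's median, and the shNT regions were close to it in width, fold and pileup.

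The splicing regulators were marked at their start in the shNIT2 list alone. ESRP1, on chromosome 8, had 3 shNIT2 regions with 13, 50 and 29 fragments. The strongest (chr8:94639504-94640729, 9.33-fold) had its summit 1197 bp before the lower end of the gene, outside the gene span, and the 29-fragment region (chr8:94641232-94642307) its summit 382 bp inside. The only shNT region of ESRP1 held 6 fragments and had its summit 2693 bp before the gene. It touched the long noncoding RNA gene LINC02894 and overlapped the weakest shNIT2 region by 35 bp. ESRP2 had 3 shNIT2 regions with 57, 21 and 13 fragments and 0 shNT regions. Its strongest region (chr16:68234607-68236141) reached 16.6-fold, among the top 3.27% of the shNIT2 list by −log10 q, and lay over the higher end of the gene, where ESRP2 is known to start. The third region touched the neighbouring phospholipase gene PLA2G15, with its summit 9605 bp beyond ESRP2. The shNT list held no region within 10 kb of ESRP2, where 38.6% of all protein-coding genes had one.

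In the shNIT2 list the GRHL2 regions with the highest fold and −log10 q lay deep inside the gene rather than at its start. The pileups were close, with 32 fragments at the start and 36 and 37 inside. The local backgrounds were 6.38 fragments at the start and 3.76 and 4.25 inside. The start was marked in the shNIT2 list by 1 region of 32 fragments and 4.47-fold (chr8:101492752-101494454), beginning 313 bp inside the gene. A pair of regions at chr8:101606404-101607591 and chr8:101608245-101609218 held 36 and 37 fragments (7.77-fold and 7.23-fold), with summits 114621 and 116072 bp from the lower end of a gene of 188762 bp. The second of the pair overlapped a shNT region of 4 fragments, whose summit lay 17 bp away. The other shNIT2 regions of GRHL2 held 14 and 13 fragments. The other shNT regions lay outside the gene. The strongest in that list held 5 fragments (4.68-fold), touched the divergent transcript GRHL2-DT and had its summit 8611 bp before the gene. The last held 4 fragments, with its summit 3670 bp beyond the far end of the gene.

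CDH1, which encodes E-cadherin, had the most regions of the 10 genes in both lists. It had 10 in the shNIT2 list and 7 in the shNT list over a gene of 98246 bp (chr16:68737292-68835537). All 10 shNIT2 summits lay in the first 25 kb of the gene, the last at 23554 bp, as did 5 of the 7 shNT summits. The start was marked in the shNIT2 list by a region of 42 fragments and 7.25-fold (chr16:68737345-68738592), which began 53 bp inside the gene. The shNT list had no region within 1 kb of that start. The strongest CDH1 region in both lists was an inner one. It held 50 fragments in shNIT2 (chr16:68755382-68756174, 10.4-fold, exact 95% Poisson interval of the fragments 37.1 to 65.9) and 12 in shNT (chr16:68755040-68756086, 9.91-fold, 6.2 to 21.0). The summits lay 18617 bp (shNIT2) and 18579 bp (shNT) from the start, 38 bp apart. Each is among the strongest 10% of its own list. These intervals cover counting error only, since reads without molecular identifiers are not independent molecules.

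A second inner group of CDH1 regions lay nearer the start, in both lists. The widest shNIT2 region of the 10 genes (chr16:68742145-68744800, 2656 bp, 47 fragments) overlapped shNT regions of 7 and 6 fragments, and the next (chr16:68745082-68746521, 23 fragments) overlapped shNT regions of 6 and 5 fragments. The 7-fragment shNT region and the wide shNIT2 region also touch RNA5SP429, a pseudogene copy of the 5S ribosomal RNA, so the pileup there is uncertain where reads match near-identical copies. The remaining shNT regions of CDH1, with 3 and 6 fragments, had summits 36332 and 60567 bp into the gene and no shNIT2 counterpart. Of the 10 shNIT2 regions of CDH1 3 overlapped a shNT region, and of its 7 shNT regions 5 overlapped a shNIT2 region. The start region and the other inner shNIT2 regions, of 12 to 20 fragments, had no shNT counterpart. CDH1 was therefore marked at some inner sites in both lists, and at its start and its other inner shNIT2 sites in the shNIT2 list alone.

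EPCAM, an epithelial adhesion molecule, had the shNIT2 region with the highest fold of the 10 genes. The region at its start (chr2:47369337-47370923) held 83 fragments in shNIT2, was 18.0-fold over background and lay in the top 1.55% of its list. Its summit lay 428 bp inside the gene. A shNT region of 5 fragments and 4.16-fold overlapped it, with a summit 1000 bp inside. The ratio of the pileups, 16.6, was the highest among the overlapping pairs at the 10 genes. It compares separate summits 572 bp apart, not the same bases. Another shNIT2 region, of 24 fragments, lay 698 bp before the gene. Further upstream, regions of 24 fragments in shNIT2 and 6 fragments in shNT overlapped, with summits 17 bp apart, 8525 bp (shNIT2) and 8508 bp (shNT) before the gene. EPCAM was the only one of the 10 genes with more shNT regions (4) than shNIT2 regions (3). The shNT regions held 4 to 6 fragments each.

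**Figure D2:**
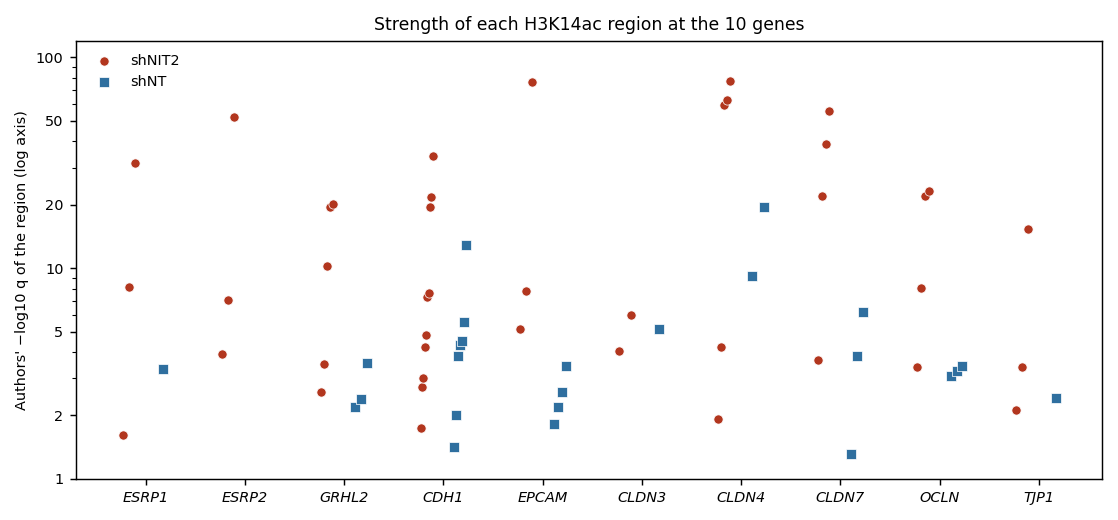
The authors' −log10 q of every region at the 10 genes, on a log axis, for the shNIT2 list (circles, left of each gene name) and the shNT list (squares, right). Values rank regions within a list and are not compared between lists. The highest shNIT2 values are those of CLDN4 (77.6) and EPCAM (76.5), and the highest shNT value is that of CLDN4 (19.5).

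The claudins, which form the paracellular seal, differed among themselves. In the shNIT2 list CLDN4 had the highest pileup and −log10 q of the 3, and CLDN7 had the highest fold. Both CLDN4 and CLDN7 were marked over most of their short spans, and CLDN3 had only weak regions away from its start. CLDN4 and CLDN3 lie on the same stretch of chromosome 7, 60725 bp apart. At CLDN4, 3 adjacent shNIT2 regions held 96, 116 and 86 fragments (9.77-fold, 11.1-fold and 12.2-fold) and together spanned 6690 bp, of which 5696 bp were covered. Their local background of 6.11 to 9.57 fragments was above the floor of 2.48. The summits of the outer pair lay 3621 and 2073 bp before the start site. In shNT this pair of sites was marked, by regions of 12 and 19 fragments (7.90-fold and 12.7-fold) with summits 3801 and 2257 bp before it. The 19-fragment region was the strongest shNT region of the 10 genes. The third shNIT2 site, 918 bp after the start site of CLDN4, had no shNT region. The remaining shNIT2 regions of CLDN4 were weak, with 29 fragments on a background of 13.4 and, touching the neighbouring gene METTL27, 21 fragments.

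CLDN7 had 4 shNIT2 regions with 37, 70, 70 and 20 fragments, and 3 shNT regions with 4, 8 and 6 fragments. Its strongest region in both lists lay in the gene body, with summits 7 bp apart (chr17:7260525-7262419, 13.8-fold in shNIT2, and chr17:7261295-7261764, 6.42-fold in shNT). This shNT region is also the one counted within 1 kb of a CLDN7 start site, and it ended 714 bp from the inner start site. The outermost overlapping pair, of 37 and 4 fragments, touched the neighbouring phosphatase gene CTDNEP1 and had summits 14 bp apart. The second 70-fragment region (chr17:7262737-7263196, 8.20-fold) lay between the pair of CLDN7 start sites of the promoter table and was not matched in shNT. CLDN3 had 2 shNIT2 regions of 24 and 22 fragments (3.71-fold and 3.12-fold) and 1 shNT region of 8 fragments (5.80-fold). All lay upstream, with summits 3106 to 3837 bp before its start site, and the 24-fragment region and the shNT region overlapped by 121 bp. None of the 3 touched the gene.

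For occludin and its scaffold TJP1, no region of 1 list overlapped a region of the other. That is the common state, since 11.5% of shNIT2 and 22.5% of shNT regions in all gene windows overlapped. Among shNT regions with a −log10 q of 2 to 5, as here, the share was 19.4%. OCLN had 4 shNIT2 regions with 38, 47, 22 and 23 fragments. The 38-fragment region lay at the start (chr5:69492848-69494433, 8.08-fold), and the other 3 formed a group with summits 24915 to 28462 bp from the lower end of the gene, led by chr5:69516705-69517730 (6.90-fold). The 3 shNT regions of OCLN held 5 fragments each, had summits 3824, 8003 and 8497 bp from the lower end and overlapped none of these. TJP1, the longest of the genes at 269683 bp, had 3 shNIT2 regions with 26, 14 and 13 fragments and 1 shNT region of 4 fragments, which did not overlap. The promoter table gives TJP1 4 start sites. The outermost had no region within 1 kb in either list. The shNIT2 regions of 26 and 14 fragments (chr15:29821124-29822415, 7.76-fold, and chr15:29822746-29823115, 3.58-fold) lay around the inner sites, 146581 to 148375 bp into the gene from the outermost. Of the annotated TJP1 promoters, the inner ones were thus marked and only in the shNIT2 list, on few fragments.

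The start base itself was seldom inside a region. At the 10 genes, 13 start sites or gene ends had a shNIT2 region within 1 kb, of which 2 were covered by a region (ESRP2 and the third site of TJP1) and 6 lay between a region on each side. Among these 13, the 8 sites from the promoter table included 1 covered and 4 flanked on both sides. Over all protein-coding genes, 8207 table sites had a shNIT2 region within 1 kb, and 20.8% of them were covered and 19.3% flanked on both sides. Sites of 1 gene share regions and are not independent. The stretches left free between the flanking regions were 306 bp at CLDN4, 301 and 317 bp at the CLDN7 sites, 330 bp at the second TJP1 site, 455 bp at EPCAM and 502 bp at ESRP1. In the shNT list 2 sites had a region within 1 kb, at CLDN7 and EPCAM, and neither was covered, where 4.48% of 1205 such sites were. The nearest edge of the region lay 714 bp from the inner CLDN7 site and 963 bp from the EPCAM gene end.

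**Figure D3:**
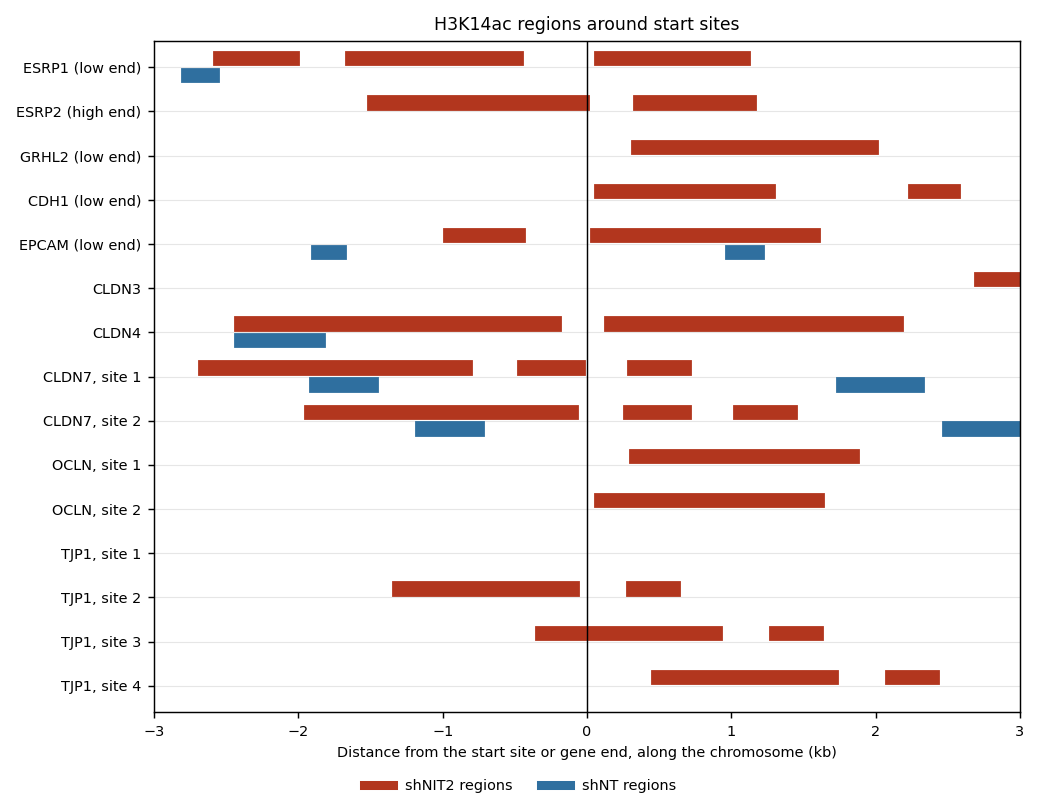
Regions of the shNIT2 list (red, above) and the shNT list (blue, below) within 3 kb of each start site, or of the marked gene end where the promoter table lacks the gene, by distance along the chromosome in kb. Sites of 1 gene are numbered in the direction of transcription. At CLDN4, both CLDN7 sites and the second TJP1 site, shNIT2 regions stop on either side of the start and leave 301 to 330 bp free.

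The promoters in these gaps are shown because shNIT2 regions stop in or beside them, with CLDN3 as the unmarked counterpart and OCLN as a start with a region on 1 side. Each runs 5′ to 3′ on the strand of transcription from 250 bases before the start to 50 after it, from RefSeq (GRCh38.p14). Capitals mark CAGGTG or its reverse CACCTG, the E-box bound by the repressors SNAI1 and ZEB1, and GGGCGG or its reverse CCGCCC, the GC box of SP factors. The first is CLDN4 (chr7:73830746-73831045, plus strand), the second the inner CLDN7 site (chr17:7262429-7262728, minus strand), then the second TJP1 site (chr15:29822419-29822718, minus strand), the second OCLN site (chr5:69492540-69492839, plus strand) and CLDN3 (chr7:73770221-73770520, minus strand).
CLDN4: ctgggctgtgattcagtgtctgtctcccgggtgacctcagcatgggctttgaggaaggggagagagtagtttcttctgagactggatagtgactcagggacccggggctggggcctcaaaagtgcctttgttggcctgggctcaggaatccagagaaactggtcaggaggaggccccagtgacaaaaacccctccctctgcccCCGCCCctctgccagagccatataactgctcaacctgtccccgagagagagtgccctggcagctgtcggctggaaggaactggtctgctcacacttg
CLDN7: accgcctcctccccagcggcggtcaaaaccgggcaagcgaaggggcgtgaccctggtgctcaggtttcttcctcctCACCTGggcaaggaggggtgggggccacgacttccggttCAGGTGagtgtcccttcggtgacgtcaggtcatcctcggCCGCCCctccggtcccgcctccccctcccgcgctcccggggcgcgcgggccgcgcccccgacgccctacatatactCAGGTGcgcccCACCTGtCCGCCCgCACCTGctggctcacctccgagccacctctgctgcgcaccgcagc
TJP1: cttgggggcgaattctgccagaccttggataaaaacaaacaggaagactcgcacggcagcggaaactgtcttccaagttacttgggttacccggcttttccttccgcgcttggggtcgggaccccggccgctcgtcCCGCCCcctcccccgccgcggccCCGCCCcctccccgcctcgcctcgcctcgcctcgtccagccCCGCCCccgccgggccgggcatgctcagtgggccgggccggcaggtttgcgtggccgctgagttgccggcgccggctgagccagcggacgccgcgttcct
OCLN: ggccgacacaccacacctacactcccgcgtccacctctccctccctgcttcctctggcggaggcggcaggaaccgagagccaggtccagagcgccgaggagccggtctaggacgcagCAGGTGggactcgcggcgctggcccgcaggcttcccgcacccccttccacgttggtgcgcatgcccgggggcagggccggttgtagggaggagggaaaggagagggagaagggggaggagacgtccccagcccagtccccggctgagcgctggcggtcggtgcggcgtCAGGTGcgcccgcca
CLDN3: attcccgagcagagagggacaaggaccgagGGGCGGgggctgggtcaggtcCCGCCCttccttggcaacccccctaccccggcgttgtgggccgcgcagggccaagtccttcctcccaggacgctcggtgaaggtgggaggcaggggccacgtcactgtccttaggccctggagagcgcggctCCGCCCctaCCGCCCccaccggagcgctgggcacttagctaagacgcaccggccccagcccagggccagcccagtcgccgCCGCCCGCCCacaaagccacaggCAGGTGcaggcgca

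Of the 300 bases of each, shNIT2 regions covered the outermost 72 at CLDN4 and 0 at the other 4, and shNT regions covered 0 in all 5. The inner CLDN7 promoter held 5 CAGGTG matches, which began at positions -174, -135, -20, -9 and 6 (counted from 1 at the start base, with negative positions before it). The outer CLDN7 promoter, which is not printed, held 0 matches of either motif, and shNIT2 regions covered 33 of its bases. OCLN held 2 CAGGTG matches, CLDN3 held 1, and CLDN4 and TJP1 held 0. GC boxes numbered 6 at CLDN3, 3 at TJP1, 2 at CLDN7, 1 at CLDN4 and 0 at OCLN. In all 10 promoters that the table holds for these 5 genes, CAGGTG on either strand was present in 5 and GGGCGG in 7, against 20.6% and 45% of all 35116 promoters in the table. The pair of OCLN promoters overlap, so they share sequence. TATAAA was in 0 of the 10 (11.5% of all), AACCGGTT, the grainyhead consensus, in 0 (0.134%), and its looser form AACNNGTT, which includes it, in 0 (3.52%). GC content was 59.0% with 5 CpG at CLDN4, against 71.3% to 72.0% with 24 to 36 CpG in the other 4 printed. The median over the table was 58.7% with 14 CpG. The CLDN4 start, marked in shNIT2, thus had fewer CpG than the unmarked CLDN3 start (24). The other marked starts printed had more, with 30 at CLDN7, 36 at TJP1 and 28 at OCLN.

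The lists overlapped at 7 of the 10 genes. Of the 42 shNIT2 regions 12 (28.6%) overlapped a shNT region, and of the 25 shNT regions 14 (56.0%) overlapped a shNIT2 region. Regions of 1 gene are not independent, and CDH1 alone gave 3 of the 12 and 5 of the 14, so no interval is given. Among regions in the window of any protein-coding gene, these shares were 11.5% of 21211 shNIT2 regions and 22.5% of 11753 shNT regions. By −log10 q, the shNIT2 regions of the 10 genes overlapped in 1 of 3 cases under 2, 0 of 13 from 2 to 5, 3 of 8 from 5 to 10, 2 of 4 from 10 to 20, 2 of 8 from 20 to 50 and 4 of 6 above. Over all shNIT2 regions in gene windows these bins had 2.23%, 4.14%, 7.19%, 14.1%, 29.2% and 63.5%. Their shNT regions overlapped in 1 of 3, 7 of 16, 4 of 4 and 2 of 2 cases in the lowest 4 bins, against 8.55%, 19.4%, 50.9% and 83.8% over all shNT regions in gene windows. The 12 and 14 regions made 14 overlapping pairs, with none at ESRP2, OCLN or TJP1. Summits were at most 100 bp apart in 7 of the 14 pairs and up to 2190 bp apart in the others, with a median of 100 bp. Over the whole lists 35.2% of 3626 pairs were that close and the median was 170 bp. The ratio of shNIT2 to shNT pileup had a median of 6.41 (range 2.17 to 16.6) in the 14 pairs and 5.78 over all pairs, with quartiles of 4.0 and 8.82. The 10 genes thus lay within the spread of all overlapping pairs, and a pair exists only where both libraries reached the threshold.

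**Figure D4:**
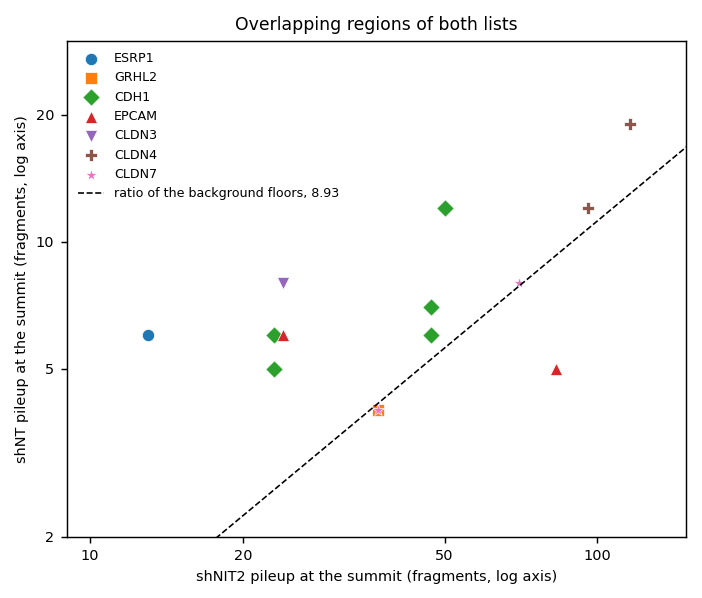
Fragments piled up at the summit in the shNIT2 list (x axis) and the shNT list (y axis), both on log axes, for the 14 overlapping pairs of regions at 7 of the genes. Each pileup is taken at the summit of its own region. The dashed line marks the ratio of the background floors, 8.93. The CLDN7 and GRHL2 points at 37 and 4 fragments coincide. EPCAM at its start (83 and 5 fragments, with summits 572 bp apart) lies furthest below the line.

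The shNIT2 regions not found in shNT numbered 30 of 42. Most shNIT2 regions in all gene windows also had no shNT counterpart, since 11.5% overlapped one. There the overlapping share was 29.2% at a −log10 q of 20 to 50 and 63.5% above 50. Of the 9 regions at these genes in the strongest 10% of the list, 4 were not found in shNT. These were the upstream region of ESRP1, the start of ESRP2, the third CLDN4 region and the CLDN7 region between its start sites. All 4 summits lay within 1197 bp of a start site or gene end. By distance, 14 shNIT2 summits were within 1 kb of a start site or gene end, 13 at 1 to 10 kb and 15 further away, against 2, 17 and 6 shNT summits. At the starts of all protein-coding genes the lists differed in the same direction (37.6% of genes in shNIT2 and 6.15% in shNT), and the distances were not compared with those of all regions.

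Genes related to the 10 in function, in lists also chosen with earlier results of these data known, were marked in a like way. In 6 lists of tight junction, adherens junction, desmosome, transcription factor, splicing and surface genes, 41 of 55 genes (74.5%) had a shNIT2 region at the start site and 12 (21.8%) a shNT region, where all genes had 37.6% and 6.15%. In the window, 50 (90.9%) and 37 (67.3%) were marked. The tight junction genes had 13 of 15 marked at the start in shNIT2 and 1 in shNT, that of the polarity protein PARD6B (8 fragments). PARD6B (35.4-fold), cingulin, CGN (13.3-fold), and the polarity scaffold PATJ (11.8-fold) led in shNIT2. All 6 desmosome genes were marked in shNIT2, led by the plaque protein PKP3 (14.9-fold), desmoplakin DSP (13.6-fold) and the desmosomal cadherin DSG2 (11.8-fold), and DSP (7 fragments) and PERP (4 fragments) were marked in shNT.

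Adherens junction genes were marked at the start in 6 of 11 cases in shNIT2, led by the alpha-catenin CTNNA1 (19.9-fold), plakoglobin JUP (7.67-fold) and vinculin VCL (7.61-fold). CTNNA1 and CTNND1, the p120 catenin, were marked in shNT on 7 fragments each. The epithelial transcription factors had 4 of 7, with ELF3 (10.7-fold), KLF5 (10.2-fold) and OVOL1 (8.23-fold), and ELF3 was marked in shNT on 11 fragments. GRHL1 and GRHL3, the paralogs of GRHL2 and a pair chosen once their values were known, had 0 shNIT2 regions in the window, where 54.9% of all genes had one, and GRHL3 had 1 shNT region. Among splicing regulators 5 of 6 were marked in shNIT2, with SRSF1 (11.4-fold), PTBP1 (10.8-fold) and MBNL1 (9.6-fold) the strongest. SRSF1, MBNL1 and RBM47 were also marked in shNT, on 5, 5 and 7 fragments. Surface and protease genes had 7 of 10, led by LAD1 (17.6-fold), MAL2 (13.8-fold) and the matriptase gene ST14 (10.9-fold). LAD1 (6 fragments) and ST14 (8 fragments) were marked in both lists. RAB25, a GTPase of membrane traffic, was alone among the 55 genes in being marked at the start in shNT (8 fragments) and not in shNIT2. Its window held 3 shNIT2 regions and 1 shNT region. The start pattern, which 1.02% of all genes had, was chosen once its values were known.

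**Figure D5:**
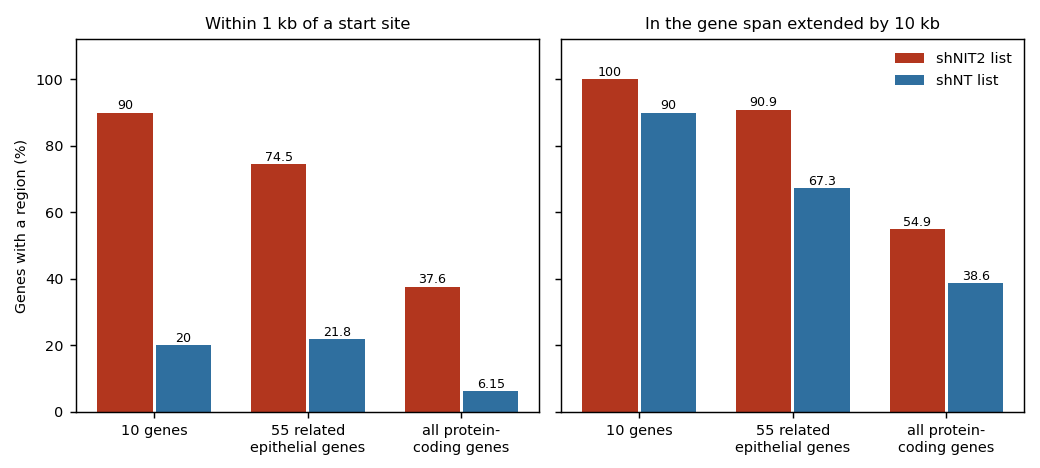
Share of genes with a region, in percent, within 1 kb of a start site (left) and in the gene span extended by 10 kb (right). Bars are for the 10 genes, the 55 genes of the related lists and all 20033 protein-coding genes, in the shNIT2 list (red) and the shNT list (blue). The axis label calls the 55 epithelial, but they include general splicing and adhesion genes such as SRSF1, PTBP1 and VCL. In both lists and both panels the share is lowest over all protein-coding genes.

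At the start site, where 37.6% of all genes had a shNIT2 and 6.15% a shNT region, 7 of 7 epithelial markers had a shNIT2 region and 3 a shNT region, and 3 of 5 gastric markers had a shNIT2 region and 0 a shNT region. The fibroblast markers COL1A1, COL1A2, COL3A1, DCN and LUM and the endothelial markers PECAM1, VWF and CDH5 had 0 there in either list. Within the window, PECAM1 had 1 shNIT2 and 4 shNT regions, VWF and COL1A1 had 1 shNT region each, and the other 5 of these genes had 0. Of the immune markers, CD3E had a shNIT2 region (44 fragments; 4 shNIT2 and 0 shNT regions in its window), and PTPRC and CD14 had 0 at the start, with 2 shNIT2 and 1 shNT regions in the window of PTPRC. Of the repressors of epithelial genes, ZEB1 had a shNIT2 region of 19 fragments and 3.37-fold (3 shNIT2 and 2 shNT regions in its window), and SNAI1, SNAI2, ZEB2 and TWIST1 had 0 at the start, with 1 shNT region in the window of SNAI1.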

How the data were processed

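Chromatin of formaldehyde-fixed MKN45 cells was sonicated and sequenced single-end, per the labels' protocols. Tools named in the submitters' processing notes included the peak caller MACS2 2.1.1, the aligner Bowtie2 2.2.6, the trimmers cutadapt 1.9.1 and Trimmomatic 0.35, and the build was hg38. Use of the inputs as control is not given in the sources. The deposited peak lists, 1 per H3K14ac library, hold a score, a fold (ratio over background), the −log10 p and −log10 q and the summit, all computed by the authors' peak caller. The inputs and reads were not used here. Total reads are unknown.

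Coordinates are 1-based on hg38. Pileup and background were solved from fold and −log10 p by the Poisson tail, with a whole number found for 99.96% of regions in each list within 0.1%, and the solution was tested on simulated data. Regions overlap when they share 1 bp. The 10 genes and all gene lists were chosen with earlier results of these data known; 2 genes of the wider lists are not reported here. Named genes were the 10, the 3 with the highest shNIT2 fold at the start site in each related list, and every related gene with a shNT region there. GRHL1 and GRHL3 were named outside this rule, and so were the fixed cell-type markers and the neighbours of the 10 genes. No test was possible with 1 library per condition. Python 3.11.15, pandas 2.3.3, SciPy 1.17.1 and matplotlib 3.10.9 were used.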

Additional observations from a re-analysis of the deposited data

How the results depend on the processing

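The number of the 10 genes marked in the shNIT2 list stayed within 1.5 times under every alternative tried, in the window (9 or 10) and at the start site (8 to 10). Over all counts, 18 of 44 values under alternatives stayed within 1.5 times and 26 moved by more. With −log10 q limited to 5 or more there were 26 shNIT2 and 6 shNT regions, with 6 of each overlapping, and 4 genes marked in the shNT window and 1 at the shNT start site. With the limit at 10 there were 18 shNIT2 and 2 shNT regions, with 2 of each overlapping, and 2 genes marked in the shNT window and 0 at the start site. With the 14033 strongest regions of each list there were 24 shNIT2 and 6 shNT regions, with 5 of each overlapping, and 4 genes marked in the shNT window and 1 at the start site. Without extension of the gene span the shNT regions numbered 14, and 6 shNIT2 and 8 shNT regions overlapped. With an overlap of at least 50% of both regions, 1 of each did. In the shNT list, start site windows of 250 bp and 3 kb marked 0 and 4 genes, and both gene ends for every gene, an alternative chosen after seeing the data, marked 1. In the shNT list 13 of 25 regions rest on 5 fragments or fewer. No paired analysis was possible because each condition has 1 library and the result comes from no test.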

Other observations

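At the edge of the window, the outermost regions counted were those of CLDN4, 9397 bp from the gene (21 fragments in shNIT2), and CLDN7, 8448 bp away (4 fragments in shNT). The nearest ones left out were 10151 bp from CLDN4 (14 fragments in shNIT2) and 12209 bp from CDH1 (5 fragments in shNT).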
